A study of Mus musculus with 32 samples.

Results

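The genes described here are the 10 genes that write, keep, oxidise or excise methylated cytosine in mouse DNA, or shield it, namely Dnmt1, Uhrf1, Dnmt3a, Dnmt3b, Dnmt3l, Tet1, Tet2, Tet3, Tdg and Dppa3. They were taken by symbol from a written list, with no value in the rule, although the list was chosen with earlier results of these data known. All 10 were found among the 55385 genes quantified in every RNA library, of which 55144 carried a GENCODE M21 symbol. Total RNA was sequenced from wild-type embryos made by in vitro fertilization, with B6D2F1/J oocytes and B6D2F1/J sperm in every group used here. Embryos taken as zygotes or as early or late 2-cell embryos had been cultured from 4 to 20 hours post insemination (hpi) with 10 µM A-485, which inhibits the acetyltransferases CBP and p300, or with the vehicle DMSO, and those taken as zygotes had only the part of this exposure before their collection. Further late 2-cell embryos had been cultured from 8 to 28 hpi with 50 nM trichostatin A (TSA), an inhibitor of histone deacetylases, or with DMSO. This gave 8 groups of 2 libraries, so each inhibitor is set against its own DMSO pair. The 2 DMSO pairs of late 2-cell embryos were assigned to their experiments by the way their titles are written, and the protocol text of each pair is worded as that of its inhibitor's libraries, while strain, genotype and treatment are labelled alike. Open chromatin had been measured by ATAC-seq with A-485 or DMSO, in late 1-cell embryos and in early 2-cell embryos, and 1 peak list per group was available, drawn from 2 replicates.

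DNA methylation in mammals is a methyl group on the cytosine of a CpG. DNMT3A and DNMT3B place it, with DNMT3L as a cofactor that has no catalytic activity of its own, while DNMT1, guided by UHRF1 to freshly copied DNA, keeps it through cell division. The TET enzymes oxidise it, and TDG cuts the most oxidised forms out for repair. After fertilization the paternal genome is oxidised largely by maternally supplied TET3, while DPPA3 (also called STELLA or PGC7) protects the maternal genome, and methylation then falls as the embryo divides.

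The sequences just before the start sites are shown because the genes differ in how many CpG they themselves carry there, which is the substrate of their products, and because some of these stretches lay in open chromatin. Promoter windows of 250 bases before each RefSeq start site (build GRCm38.p6) existed for 9 of the 10 genes, all but Dppa3. A choice of 6 windows is printed 5′ to 3′ on the gene's strand, without bases that fall in an annotated untranslated region, with every CpG in capitals.

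Dnmt1 (chr9:20959889-20960138, minus strand): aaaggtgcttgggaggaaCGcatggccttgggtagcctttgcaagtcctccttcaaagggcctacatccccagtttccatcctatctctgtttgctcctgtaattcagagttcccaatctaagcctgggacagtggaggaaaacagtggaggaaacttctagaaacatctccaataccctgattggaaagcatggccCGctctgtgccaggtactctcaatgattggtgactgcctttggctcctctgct

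Dnmt3l (chr10:78055085-78055334, plus strand): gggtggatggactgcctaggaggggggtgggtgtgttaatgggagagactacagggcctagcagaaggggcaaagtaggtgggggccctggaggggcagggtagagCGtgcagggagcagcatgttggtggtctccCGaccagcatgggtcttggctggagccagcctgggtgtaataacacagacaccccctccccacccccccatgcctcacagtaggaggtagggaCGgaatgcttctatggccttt

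Tet1 (chr10:62887325-62887412, minus strand): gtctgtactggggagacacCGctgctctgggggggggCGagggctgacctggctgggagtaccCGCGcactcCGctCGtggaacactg

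Tet2 (chr3:133544391-133544640, minus strand): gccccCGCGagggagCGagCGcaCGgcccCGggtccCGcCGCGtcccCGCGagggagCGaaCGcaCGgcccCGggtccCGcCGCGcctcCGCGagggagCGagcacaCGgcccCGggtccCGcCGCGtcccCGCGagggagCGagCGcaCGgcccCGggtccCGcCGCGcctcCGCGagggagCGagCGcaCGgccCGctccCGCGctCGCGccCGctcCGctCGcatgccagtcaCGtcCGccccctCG

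Uhrf1 (chr17:56304063-56304312, plus strand): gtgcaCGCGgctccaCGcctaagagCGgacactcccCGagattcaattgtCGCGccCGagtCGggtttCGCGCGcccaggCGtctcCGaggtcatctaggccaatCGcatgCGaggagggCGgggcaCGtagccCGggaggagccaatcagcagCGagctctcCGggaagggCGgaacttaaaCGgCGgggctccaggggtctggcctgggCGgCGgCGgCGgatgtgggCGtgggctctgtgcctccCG

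Tdg (chr10:82629588-82629827, plus strand): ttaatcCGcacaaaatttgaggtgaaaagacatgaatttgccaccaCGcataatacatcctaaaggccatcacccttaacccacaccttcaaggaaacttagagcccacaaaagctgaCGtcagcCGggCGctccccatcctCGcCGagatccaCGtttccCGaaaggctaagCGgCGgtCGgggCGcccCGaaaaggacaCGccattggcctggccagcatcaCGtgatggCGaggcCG

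Over 32851 such windows of all genes the median number of CpG was 6, with quartiles of 2 and 16. The Tet2 window held 51 CpG, more than 99.9% of windows, and the Uhrf1 window held 30, while the Dnmt1 window shown held 2 and the Dnmt3l window shown held 3. Dnmt1 thus has a start site almost without CpG beside another with 26, at chr9:20952624-20952873. The 38 and 40 CpG of 2 overlapping Dnmt3a windows and the 21 of Dnmt3b also lay above the upper quartile, and the single Tet3 window held 17. The Tet1 window held 15 CpG over its 250 bases, of which 6 lie in the stretch printed. Short motifs were searched on both strands. The cAMP response element TGACGTCA, which overlaps no other motif searched, was found in the Tdg window, with its CpG in capitals above, and in no other window of these genes, beside 1.55% of all windows. The GC box GGGCGG stood in at least 1 window of 8 of the 9 genes (32.7% of all windows), the CCAAT box in windows of 4 genes (33.8%), and the TATA box TATAAA in none (12.4%). The shares of all windows are per window, while some of these genes have several windows, so counts of genes cannot be set directly against them.

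Depth ranged from 13206163 to 32585987 expected counts per RNA library and was lowest in the 2 late 2-cell A-485 libraries. Expected counts are RSEM's estimates of reads per gene and need not be whole, since reads that fit several genes are divided. Levels below are CPM, the expected count divided by the library total and scaled up, used to compare a gene between groups, or FPKM, the authors' value per kilobase of estimated transcript length, used to compare genes. Written marker lists were read in every library. The 2-cell and oocyte markers shifted with the inhibitors, as given below, so they cannot check the identity of treated embryos. All 8 oocyte markers were at or above 1 FPKM in every library, and the 5 markers of 2-cell embryos found by symbol summed to 390 and 439 FPKM in early 2-cell DMSO libraries and to 10.2 and 11.2 in those with A-485. Markers of cumulus and granulosa cells summed to at most 3.25 FPKM, of erythroid cells to at most 9.84, of sperm to at most 18.9 (nearly all Prm2) and of fibroblasts to at most 16.4, the last in late 2-cell A-485 libraries and nearly all Pdgfra. The late 2-cell A-485 libraries also had more mitochondrially encoded mRNA (5.43% and 5.35% of counts, beside 2.44% and 2.35% with DMSO) and higher oocyte markers (sums of 1400.4 and 1407 FPKM, beside 732 and 783). In these measures the TSA libraries moved likewise, with 3.66% and 3.72% mitochondrial mRNA beside 2.71% and 2.39%, and sums of oocyte markers of 755 and 728 FPKM beside 582 and 565. The 2-cell markers moved opposite ways at late 2-cell, to sums of 56.9 and 40.2 FPKM with A-485 beside 256 and 235, and to 406 and 385 with TSA beside 146 and 191. The part of these shifts in the results on late 2-cell embryos was not tested.

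The quasi-likelihood test in edgeR was run on rounded expected counts with TMM scaling and Benjamini-Hochberg adjustment over all genes tested. A gene was called when its adjusted p was under 0.05, its change at least 2-fold and its mean FPKM at least 1 in either group. The labels do not say whether the 2 libraries of a group came from separate pools of embryos, so p-values measure only the spread between these libraries. In such bulk samples, less RNA per embryo and fewer embryos or cells with the RNA cannot be told apart, and every change is relative to the other RNA of the library. At zygote, none of the 10 genes was called after A-485 by edgeR or by DESeq2, and 1, Tdg, had an unadjusted p under 0.05. Of all 18258 genes tested there, 0.00548% were called higher and 0.0657% lower. At early 2-cell, none of the 10 was called higher (0.402% of all genes were), with edgeR or DESeq2, and 1 was called lower (7.90% of all genes), Tet1. At late 2-cell, A-485 gave 1 higher call, Tdg, where 10.5% of all genes were called higher, and 2 lower calls, Tet1 and Dppa3, where 16.8% were. By adjusted p alone 6 of the 10 passed, beside 37.4% of all genes. TSA gave the same count in each direction with the same genes, beside 13.8% of all genes called higher and 13.9% lower, and 6 of 10 passed by adjusted p alone, beside 43.1%. The share of the 10 genes called at late 2-cell was thus near that of all genes with either inhibitor.

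The stage steps in DMSO gave calls in both directions. From zygote to early 2-cell in DMSO, 4 of the 10 fell (14.9% of all genes), Dnmt1, Dnmt3a, Tet3 and Uhrf1, and 1 rose (11.2%), Tet1, with 7 past the adjusted p alone (46.1% of all genes). From early to late 2-cell, 2 of the 9 tested fell (8.92%), Dnmt3l and Uhrf1, and 1 rose (15.9%), Tet1 again, with 7 past the adjusted p alone (36.2%). Tdg was not tested there, having too few counts. The median log2 change of the 10 genes from zygote to early 2-cell was -0.90, beside 0.08 over all genes, and that of the 9 from early to late 2-cell was -0.58, beside -0.02. Under A-485 at late 2-cell the median of the 10 was -0.43 beside 0.28, and under TSA -0.10 beside 0.13. These stage comparisons share their DMSO libraries with the A-485 comparisons and with each other. The early 2-cell libraries carry the protocol wording of the TSA experiment and the zygote and other late 2-cell DMSO libraries a different wording, so from zygote to early 2-cell stage and protocol wording cannot be told apart. With the late 2-cell DMSO libraries of the TSA experiment, which share the wording of the early ones, the change from early to late 2-cell was 2.60 for Tet1, -1.27 for Dnmt3l and -1.94 for Uhrf1, all called, and Tet3 was called as well at -1.55.

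**Figure D1:**
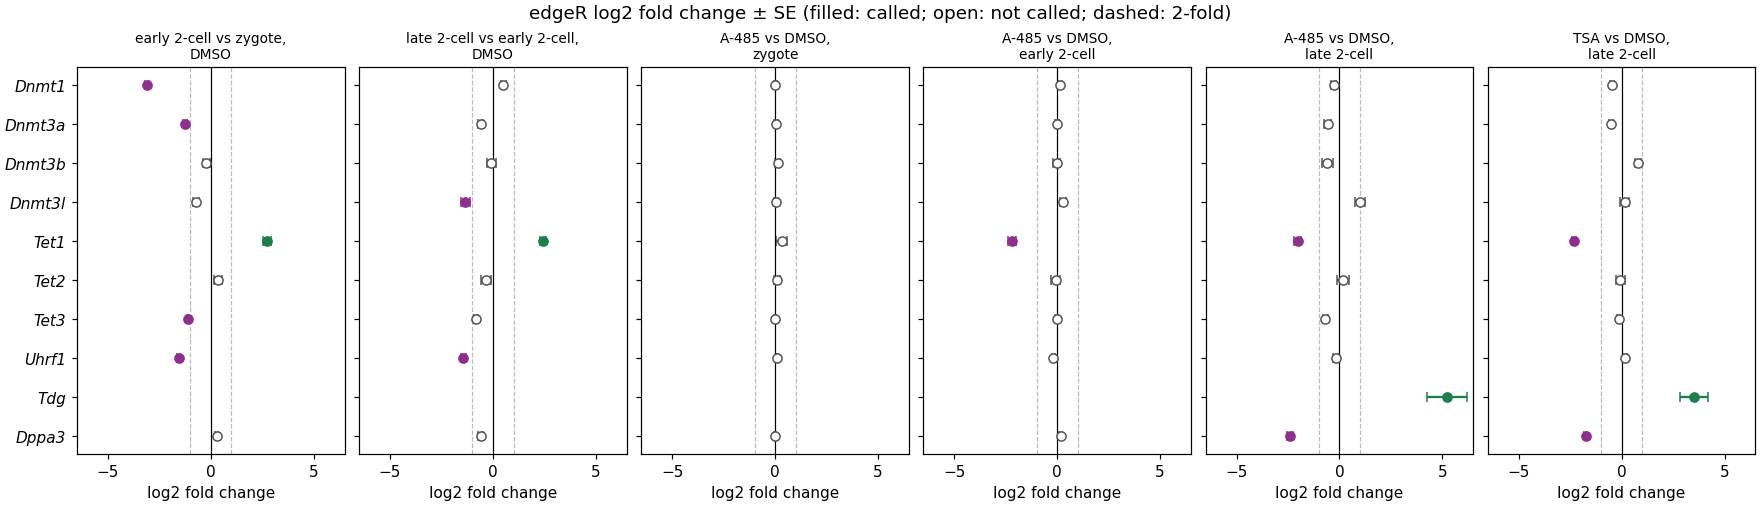
Log2 fold change (x axis) with its standard error from edgeR for each gene (rows) in the 2 stage comparisons and the 4 inhibitor comparisons, each over 2 libraries against 2. Filled points were called, open points were not, and Tdg is shown only where called. A reader should see that Tet1 rose in both stage steps, at 2.73 and 2.42, and fell in the early and late 2-cell A-485 comparisons and under TSA, at -2.19, -2.02 and -2.33.

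The maintenance pair started high and fell early. Dnmt1 (chr9:20907209-20959888, minus strand), the enzyme that copies methylation to the new strand, stood at 898 and 1079 CPM in zygote DMSO libraries, then 106 and 112 in early and 147 and 163 in late 2-cell embryos. The 3 stages did not overlap. It fell 8.50-fold from zygote to early 2-cell (log2 -3.09 ± 0.10 SE, edgeR adjusted p = 6.28e-11), the largest change among the 10 genes in that step, and then rose by 0.50 on the log2 scale (adjusted p = 0.00456). RSEM's estimated transcript length of Dnmt1, an average weighted by the transcripts it assigns reads to, was 2384 to 2687 bases in the 4 zygote libraries and 3229 to 5280 in the other 12, so the mix of transcripts as estimated also differed between zygotes and later embryos. Uhrf1 (chr17:56303321-56323486, plus strand), which reads hemimethylated CpG and recruits DNMT1, stood at 866 and 816 CPM in zygotes, then 249 and 286 in early and 99.5 and 97.9 in late 2-cell embryos. It fell in each step, 2.95-fold (edgeR adjusted p = 2.88e-09) and then 2.71-fold (adjusted p = 1.27e-06), so it went on falling where Dnmt1 did not.

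No A-485 comparison of the maintenance pair passed the test at any stage. Dnmt1 stood at 988 and 983 CPM with A-485 in zygotes, then 122 and 117 in early and 152 and 139.7 in late 2-cell embryos, with edgeR log2 changes of 0.00310, 0.15 and -0.28 and adjusted p of 0.997, 0.352 and 0.0957. Uhrf1 stood at 875 and 896, 246 and 217 and 93.6 and 107 CPM, with log2 changes of 0.0825, -0.19 and -0.17, of which the last had an adjusted p of 0.378 in edgeR. Scaled to the mitochondrially encoded genes, both were called lower at late 2-cell, Dnmt1 at -1.26 and Uhrf1 at -1.14. With TSA, Dnmt1 stood at 165 and 138 CPM beside 175 and 153 with DMSO, groups that overlap, and its log2 change after TMM scaling was -0.47 ± 0.10 (edgeR adjusted p = 0.00307). That result was lost with scaling to total counts, where the change was -0.11 (adjusted p = 0.400). Uhrf1 stood at 101 and 95.4 CPM beside 65.5 and 71.1 (log2 0.17 ± 0.0949, adjusted p = 0.183), and the gap between its CPM and its log2 change shows how far TMM moved these 4 libraries.

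**Figure D2:**
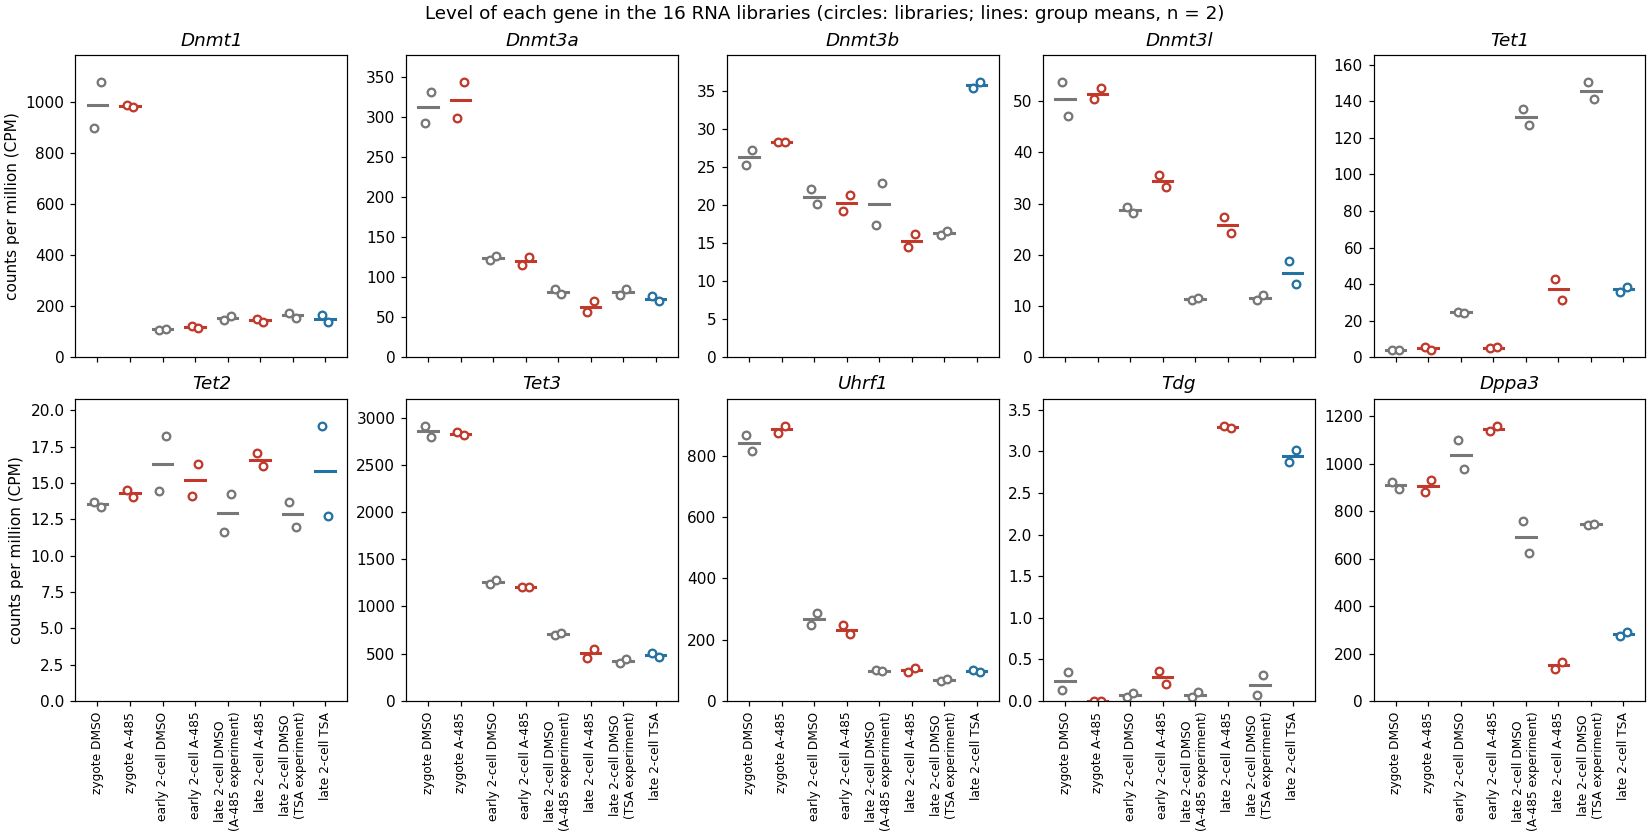
Level of each gene in CPM (y axis, linear from 0, 1 panel per gene) in the 8 groups of RNA libraries (x axis), with a circle for each library and a line at the mean of 2. A reader should see Dnmt1, Uhrf1 and Tet3 highest in zygotes, Tet1 highest in late 2-cell DMSO libraries, Tdg above 2 CPM in the late 2-cell A-485 and TSA libraries only, and Dppa3 lowest in those same libraries.

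The de novo group moved less, and each of its members in its own way. Dnmt3a (chr12:3806007-3914443, plus strand), the enzyme that methylates the genome of the growing oocyte, stood at 293 and 331 CPM in zygotes, then 121 and 126 in early and 84.6 and 79.1 in late 2-cell embryos. It fell 2.37-fold in the first step (edgeR adjusted p = 9.60e-08) and by a further 0.60 on the log2 scale in the next (adjusted p = 0.00248). Dnmt3b (chr2:153649450-153687730, plus strand), the main de novo enzyme of the implanting embryo, stood at 25.2 and 27.3, 22.1 and 20.1 and 17.4 and 22.9 CPM at the same stages, and neither step passed the test (edgeR adjusted p = 0.284 and 0.828). Dnmt3l (chr10:78041947-78063622, plus strand), the inactive cofactor, stood at 53.7 and 47.2, 29.3 and 28.2 and 11.2 and 11.6 CPM. It fell by 0.72 on the log2 scale (adjusted p = 4.85e-04) and then 2.53-fold (edgeR adjusted p = 1.98e-04), so the cofactor fell in both steps and Dnmt3b passed in neither.

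Under A-485 none of the 3 passed the test at zygote or early 2-cell. At late 2-cell Dnmt3l stood at 27.4 and 24.3 CPM with A-485 beside 11.2 and 11.6 with DMSO, without overlap. Its log2 change of 0.99 ± 0.25 (1.99-fold, edgeR adjusted p = 0.00794) passed the adjusted p and fell just short of the fold cutoff, and it passed both in DESeq2 and in 3 of the 4 fits that leave out 1 library. Scaled to the mitochondrially encoded genes, its change was 0.01 (adjusted p = 0.977). Dnmt3a stood at 56.3 and 69.6 CPM beside 84.6 and 79.1 and fell by 0.57 on the log2 scale (edgeR adjusted p = 0.0169), which no longer passed without A-485 library 1 (adjusted p = 0.0891), without DMSO library 1 (0.131) or with total-count scaling (0.0827). Dnmt3b stood at 14.5 and 16.2 beside 17.4 and 22.9 CPM (log2 -0.58 ± 0.26, edgeR adjusted p = 0.0979).

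TSA moved Dnmt3b instead. It stood at 35.4 and 36.1 CPM with TSA beside 16.04 and 16.66 with DMSO, well apart, and rose by 0.78 ± 0.14 on the log2 scale (1.71-fold, edgeR adjusted p = 0.00111), short of the fold cutoff except with total-count scaling, where it rose by 1.13. Dnmt3l stood at 18.7 and 14.2 beside 11.2 and 12.1 CPM (log2 0.14 ± 0.21, adjusted p = 0.621). Dnmt3a stood at 76.3 and 69.7 beside 77.5 and 85.5 CPM, with both TSA libraries below both DMSO libraries, and its log2 change of -0.51 (edgeR adjusted p = 0.00168) came to -0.16 with total-count scaling (adjusted p = 0.234).

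Tet3 fell and Tet1 rose between stages, with Tet3 the higher of the pair throughout. Tet3 (chr6:83362373-83459084, minus strand), the oxidase stored in the oocyte, stood at 2909 and 2798 CPM in zygotes, then 1237 and 1275 in early and 695 and 723 in late 2-cell embryos. It fell 2.13-fold in the first step (edgeR adjusted p = 4.32e-09) and by a further 0.83 on the log2 scale in the next (adjusted p = 8.14e-06). Tet1 (chr10:62804570-62908996, minus strand), the oxidase known from embryonic stem cells and germ cells, ran the other way, from 3.75 and 4.09 CPM to 24.9 and 24.1 and then 136 and 127. It rose 6.64-fold (log2 2.73 ± 0.21, edgeR adjusted p = 1.71e-07) and 5.36-fold (log2 2.42 ± 0.14, adjusted p = 1.45e-07), and its 3 stages were far apart. Tet2 (chr3:133463679-133545139, minus strand), the family member without the CXXC domain of the other two, stood at 13.7 and 13.3 CPM in zygotes, then 14.4 and 18.2 in early and 11.6 and 14.3 in late 2-cell embryos, and neither step passed the test (edgeR adjusted p = 0.154 and 0.303).

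Tet1 was the only one of the 10 genes called after A-485 at early 2-cell. It stood at 4.91 and 5.66 CPM with A-485 beside 24.9 and 24.1 with DMSO, close to its level in zygotes, and fell 4.57-fold (log2 -2.19 ± 0.20, edgeR adjusted p = 1.08e-05). At late 2-cell it stood at 42.6 and 31.5 CPM beside 136 and 127, without overlap, and fell 4.05-fold (log2 -2.02 ± 0.18, edgeR adjusted p = 2.23e-06). With TSA it stood at 35.7 and 38.5 CPM beside 150.2 and 141 and fell 5.02-fold (log2 -2.33 ± 0.10, edgeR adjusted p = 2.47e-08). Each of these calls held under every alternative run. In zygotes, where Tet1 was barely present, it stood at 5.49 and 4.22 CPM with A-485 (log2 0.32, adjusted p = 0.978). The estimated length of Tet1 varied from 2392 to 11305 bases between libraries, so its FPKM scatters more than its counts, which were 110 or more in every library and whole numbers in all 16.

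With TMM scaling Tet3 and Tet2 were not called after either inhibitor. Tet3 stood at 1211 and 1209.9 CPM with A-485 at early 2-cell (log2 -0.0346, edgeR adjusted p = 0.774), and at 459.9 and 549.6 at late 2-cell, below both DMSO libraries, a fall of 0.68 on the log2 scale (adjusted p = 3.01e-04) that reached the call at -1.66 with mitochondrial scaling. With TSA it stood at 510.3 and 467 CPM beside 400.1 and 439.9 (log2 -0.14, edgeR adjusted p = 0.134), and the direction turned with total-count scaling, to 0.22 (adjusted p = 0.0279). Tet2 did not pass in any inhibitor comparison, with log2 changes of 0.0865, -0.0849, 0.17 and -0.0560 for A-485 at the 3 stages and for TSA.

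Within a library, shares of a family do not depend on how libraries are scaled. With counts divided by a fixed mean length per gene, Tet3 made up 99.3% of the TET family in both zygote DMSO libraries. Tet1 made up 2.62% and 2.45% at early 2-cell with DMSO and 0.540% and 0.620% with A-485. At late 2-cell its share was 20.7% and 18.9% with DMSO and 10.8% and 6.99% with A-485, and 32.9% and 29.7% beside 8.34% and 9.79% in the TSA experiment. The Tet1 share was thus lower with each inhibitor in every library from early 2-cell on. In the DNMT3 group at late 2-cell, Dnmt3l made up 53.4% and 45.7% with A-485 beside 24.6% and 25.1% with DMSO, and Dnmt3b made up 24.9% and 28.5% with TSA beside 15.3% and 14.6%. Uhrf1 made up 51.9% and 45.8% of the sum of Dnmt1 and Uhrf1 in zygotes with DMSO, then 72.4% and 74.0% in early and 43.1% and 40.2% in late 2-cell embryos.

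**Figure D3:**
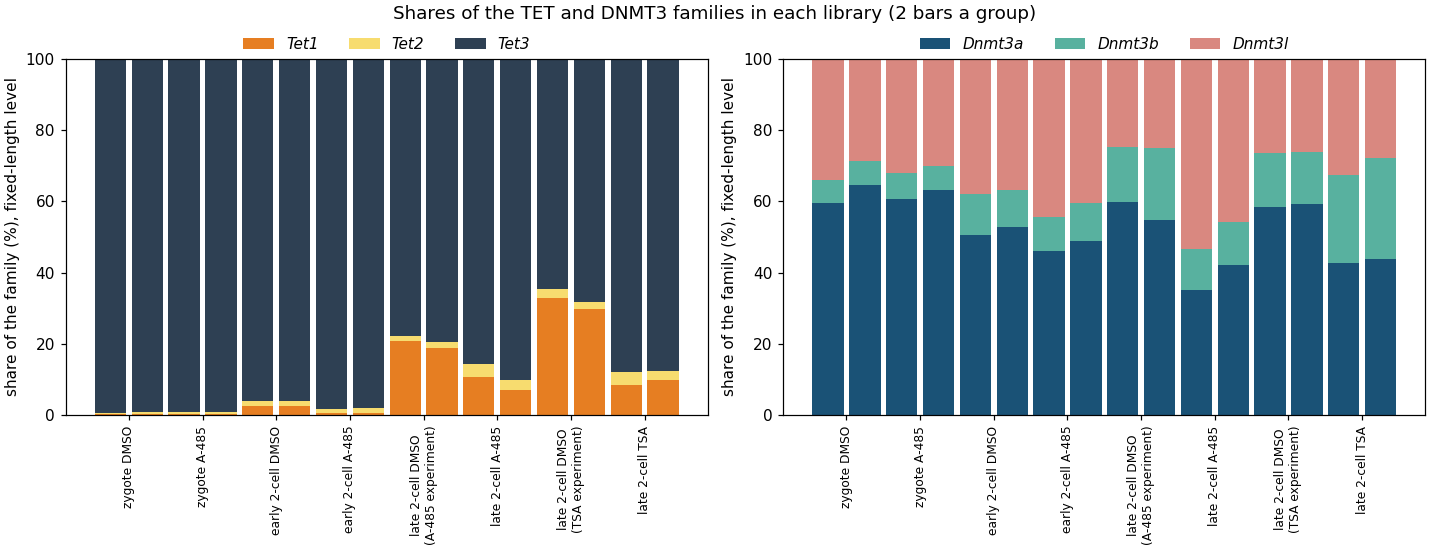
Share in percent (y axis) of each TET gene and each DNMT3 gene in its family, from counts divided by a fixed length per gene, with 1 stacked bar per library and 2 bars per group. A reader should see Tet3 near 99% in zygotes, the Tet1 share of 18.9% to 32.9% in late 2-cell DMSO libraries against 6.99% to 10.8% with either inhibitor, and the larger Dnmt3l share with A-485.

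Tdg (chr10:82629828-82650799, plus strand), the glycosylase that removes formylated and carboxylated cytosine, was near 0 except in late 2-cell embryos after an inhibitor. Its expected counts were 4 and 10 in zygote DMSO libraries and 0 and 0 with A-485, then 1.06 and 2 in early 2-cell DMSO libraries beside 8 and 5 with A-485, and 1 and 2 in late 2-cell DMSO libraries beside 43.6 and 48.9 with A-485. In the TSA experiment they were 2 and 7.71 with DMSO and 53.9 and 59.0 with TSA. Only the late 2-cell inhibitor libraries exceeded 10 counts, and in both experiments they stood clear of their DMSO pair. Because the DMSO counts are so few, the sizes are given as ratios of summed counts per library total with exact 95% intervals that cover counting error only. At late 2-cell the ratio was 46.6 (15.5 to 230.1) for A-485, 93 counts beside 3, and 15.1 (7.94 to 32.4) for TSA, 113 beside 10. The edgeR test gave adjusted p of 0.00112 and 0.00170. At early 2-cell the ratio was 4.07 (1.12 to 22.2), 13 counts beside 3 (edgeR adjusted p = 0.595), and at zygote 0 counts beside 14 allowed a ratio of up to 0.278 (adjusted p = 0.830), so neither passed. Per kilobase, Tdg reached 5.00 and 3.63 FPKM with A-485 and 1.91 and 1.83 with TSA, a level still far below that of Tet3. Tdg has the annotated copies Gm9855 and Tdg-ps. In the 2 TSA libraries, the only ones with over 50 Tdg counts, Gm9855 was assigned 18.6% and 25.8% as many and Tdg-ps 1.76% and 11.2%, and over all libraries they had at most 13.9 and 10.8 counts, so how RSEM divided reads between them affects the value of Tdg.

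Dppa3 (chr6:122626410-122630272, plus strand), the maternal factor that protects methylated DNA in the zygote, was the highest of the 10 genes per kilobase in every group. It stood at 1447 and 1402 FPKM in zygotes, then 1729.6 and 1531 in early and 1205 and 987 in late 2-cell embryos with DMSO. In CPM these were 926 and 896, 1100.5 and 978 and 761 and 625. It rose by 0.28 on the log2 scale in the first step (edgeR adjusted p = 0.00621), a result that did not pass without early 2-cell DMSO library 1 (adjusted p = 0.0756) and that became a log2 change of -1.05 when libraries were scaled to mitochondrially encoded genes. It fell by 0.58 in the next step (adjusted p = 0.00228). With A-485 it stood at 883 and 933 CPM in zygotes and 1137 and 1159 at early 2-cell, on either side of the DMSO range in zygotes and above it at early 2-cell, and neither comparison passed (edgeR adjusted p = 0.997 and 0.192). At late 2-cell it stood at 134 and 165 CPM with A-485 beside 761 and 625, far apart, and fell 5.30-fold (log2 -2.41 ± 0.14, edgeR adjusted p = 9.93e-08). With TSA it stood at 276 and 291 CPM beside 744 and 746 and fell 3.36-fold (log2 -1.75 ± 0.0611, edgeR adjusted p = 8.79e-09). Its processed copy Dppa3-ps was assigned 0.200% to 0.454% as many counts.

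An interaction term over 8 libraries asked whether A-485 acted differently at the 2-cell stages, where 15.9% of all genes differed with the 2-fold cutoff and 20.0% by adjusted p alone. Of the 10 genes, 1 differed with the cutoff, Dppa3, with a difference of effects of -2.48 ± 0.16 on the log2 scale (edgeR adjusted p = 2.74e-11), and 3 differed by adjusted p alone. The loss of Tet1 was not shown to differ between the stages, with a difference of 0.25 ± 0.24 (edgeR adjusted p = 0.536). Tet1 fell at both 2-cell stages, while Dppa3 fell at late 2-cell and its early 2-cell change, 0.16 on the log2 scale, did not pass. Late 2-cell embryos were taken after the exposure to A-485 had ended, so stage and time since its removal cannot be told apart here. The early and late 2-cell libraries of this term also differ in protocol wording, which cannot be told apart from stage either.

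The effects of A-485 and TSA at late 2-cell were compared in the same way, although the drugs, doses and hours of exposure differed. Exposure ended at 20 hpi with A-485 and at 28 hpi with TSA, so inhibitor and time since its removal cannot be told apart. In this comparison 14.0% of all genes differed with the cutoff and 17.3% by adjusted p alone. Dnmt3b was the member that differed with the cutoff, by -1.47 ± 0.28 on the log2 scale (edgeR adjusted p = 0.00119), since it rose with TSA and stood lower with A-485. Tet3 and Dppa3 differed by adjusted p alone, at -0.65 (adjusted p = 0.00188) and -0.77 (adjusted p = 0.00245). For Tet1 the difference was 0.20 ± 0.20 (adjusted p = 0.593) and for Tdg 1.62 ± 1.24 (edgeR adjusted p = 0.448). The standard error for Tdg is large because its DMSO counts are few.

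The 2 late 2-cell DMSO pairs differ in the hours of culture with DMSO and, as their titles were read, in experiment. Between them none of the 10 genes was called, beside 1.19% of all genes called higher and 0.136% lower in the TSA experiment, and 2 passed by adjusted p alone, beside 2.36% of all genes. DESeq2 likewise called none, and the same 2 had an unadjusted p under 0.05 in edgeR. These were Tet3, at 400.1 and 439.9 CPM beside 695 and 723 (log2 -0.75 ± 0.0885, edgeR adjusted p = 3.93e-04), and Uhrf1, at 65.5 and 71.1 beside 99.5 and 97.9 (log2 -0.53 ± 0.12, adjusted p = 0.0344). Uhrf1 no longer passed without either DMSO library of the TSA experiment (adjusted p = 0.399 and 0.108). The DMSO level of Tet3 in the TSA experiment was below its level with A-485 in the other experiment, and the log2 change after A-485 (-0.68) was smaller than that between the DMSO pairs.

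Per kilobase, the order of the genes with DMSO changed from stage to stage. In zygotes Dppa3 led, followed by Dnmt1 and Tet3, whose 2 libraries overlapped, then Uhrf1, Dnmt3a, Dnmt3l, Dnmt3b, Tet2, Tet1 and Tdg without overlap. The place of Dnmt1 there depends on its short estimated length in zygotes. With a fixed length per gene, means were 390 for Tet3, 265 for Dnmt1 and 253 for Uhrf1, and the libraries of Dnmt1 and Uhrf1 overlapped. At early 2-cell the order was Dppa3, Tet3, Uhrf1, then Dnmt1, Dnmt3l and Dnmt3a, of which neighbours overlapped, then Dnmt3b and Tet1, which overlapped, Tet2 and Tdg. At late 2-cell in the A-485 experiment it was Dppa3, Tet3, Dnmt1, then Uhrf1 and Tet1, which overlapped, then Dnmt3a, Dnmt3l, Dnmt3b, Tet2 and Tdg. With A-485 at late 2-cell Tet1 stood below Dnmt3l and Dnmt3a, and Tdg, Dnmt3b and Tet2 overlapped with their neighbours in that order. In the DMSO pair of the TSA experiment Tet1 stood above Uhrf1 without overlap. With DMSO Tet1 thus moved from the last place but one in zygotes to beside or above Uhrf1 at late 2-cell.

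Open chromatin was described from the peak lists, which are read as GRCm38 from the labels and held 10214 distinct peaks at late 1-cell with DMSO, 7094 with A-485, 27693 at early 2-cell with DMSO and 13712 with A-485. A promoter peak is one with a base within 1 kb of any annotated start site of the gene, and a distal peak lies over 2.5 kb from every start site but inside the gene or within 50 kb of it. The values are fold enrichment over background as the authors' peak caller gave them, and with 1 list per group there is no replicate error and no test. A promoter peak was listed for 4 of the 10 genes at late 1-cell with DMSO, 2 with A-485, 7 at early 2-cell with DMSO and 2 with A-485. Over the 12380 genes at 1 FPKM or more in early 2-cell DMSO libraries these shares were 38.3%, 37.1%, 48.5% and 57.8%. A larger share of those 12380 genes thus had a promoter peak with A-485 than with DMSO at early 2-cell. Of these 10 genes fewer had one with A-485 (2) than with DMSO (7). Tdg, whose mean was below 1 FPKM at early 2-cell with DMSO, is outside the set of 12380. Counted as peaks, those within 2.5 kb of any start site numbered 10974 with DMSO and 9736 with A-485. Of the 12 promoter peaks of these genes at early 2-cell with DMSO, 1 overlapped a peak of the A-485 list. Of all peaks that were not distal 46.3% did, a wider set that reaches 2.5 kb from any start site. Of the 53 distal peaks of these genes 3 did, beside 5.54% of all 16719 distal peaks.

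**Figure D4:**
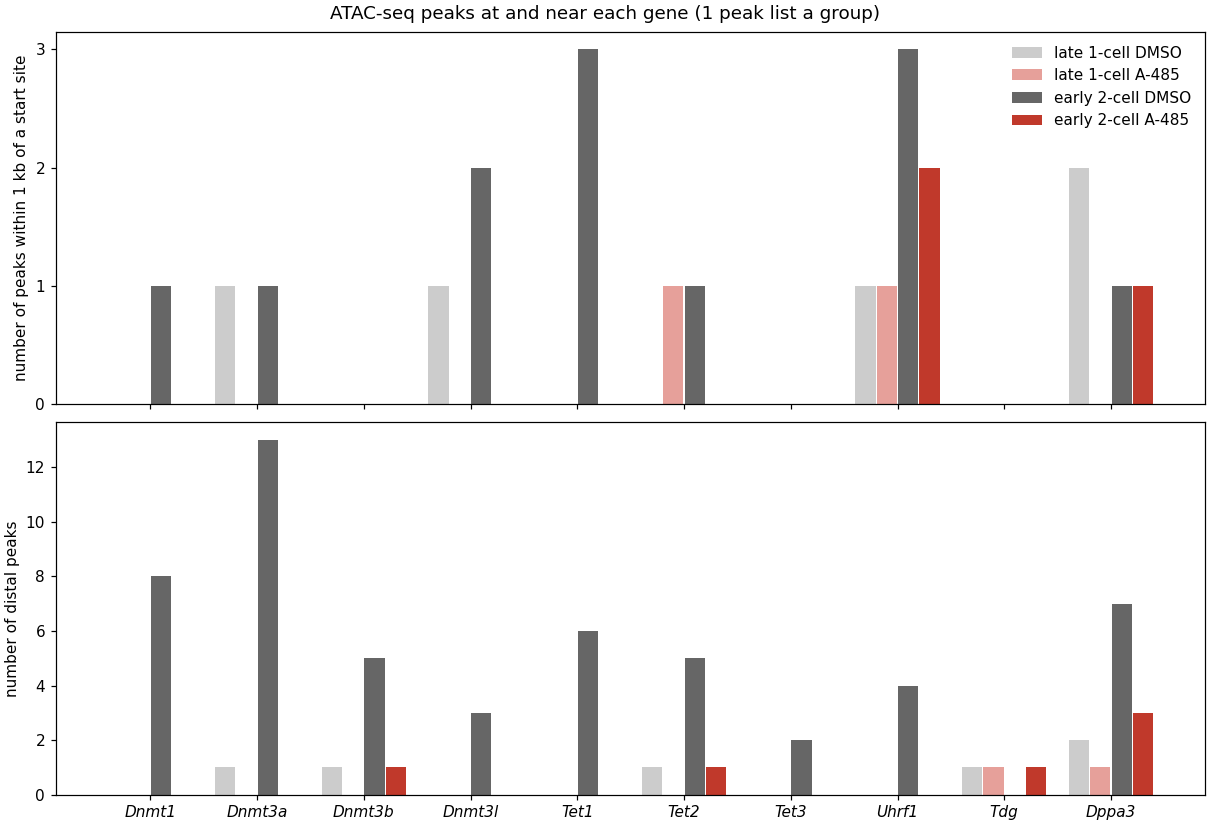
Number of ATAC-seq peaks (y axis) with a base within 1 kb of a start site of each gene (top) and of distal peaks inside the gene or within 50 kb (bottom), in the 4 peak lists. A reader should see that early 2-cell DMSO has the most peaks for most genes, up to 13 distal peaks at Dnmt3a, and that Uhrf1 is the gene with a promoter peak in all 4 lists.

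In the A-485 lists Uhrf1 kept its peak and Tet1 had none. The CpG-rich Uhrf1 stretch printed above lay under a peak in all 4 lists, with fold enrichments of 8.17 and 7.77 at late 1-cell with DMSO and A-485, and 8.84 and 6.60 at early 2-cell. Tet1 had 3 promoter peaks at early 2-cell with DMSO, with enrichments of 4.77, 4.70 and 7.94, and 6 distal peaks, and none in the other 3 lists. Its RefSeq promoter window itself lay under no peak. The strongest of the Tet1 peaks, with an enrichment of 11.2, lies inside the gene and outside annotated untranslated regions at chr10:62836928-62837205. Overlap with coding exons was not checked, so the label intronic below means only inside the gene. The sequence of this peak on the strand of Tet1 is shown because it is the most enriched Tet1 peak without a counterpart in the A-485 list. Signal at sites missing from a list was not compared.

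Tet1 intronic peak: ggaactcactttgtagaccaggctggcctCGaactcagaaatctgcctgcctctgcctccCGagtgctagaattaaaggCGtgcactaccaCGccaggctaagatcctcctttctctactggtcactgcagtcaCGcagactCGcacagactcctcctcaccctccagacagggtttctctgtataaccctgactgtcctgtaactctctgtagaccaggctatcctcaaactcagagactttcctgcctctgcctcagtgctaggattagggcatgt

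Of its 278 bases, 208 (74.8%) are marked as repeat in the reference, and it holds 6 CpG and none of the 4 motifs. Reads in such repeats can fit many places in the genome, which bears on how well the peak is placed.

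Most of the other genes also had fewer peaks with A-485 at early 2-cell. Dppa3 had a promoter peak at chr6:122626047-122626499 at early 2-cell with DMSO, with an enrichment of 7.80, and at nearly the same place at late 1-cell with DMSO (4.70), and neither A-485 list held it. A peak downstream of it, near the start of another Dppa3 transcript, was in the late 1-cell DMSO list (5.01) and the early 2-cell A-485 list (6.77). The Dnmt3l stretch printed above lay under a peak of 7.19 at early 2-cell with DMSO only, with a second peak of 8.35 close by. The Tet2 stretch, with its 51 CpG, overlapped a peak of 10.4 at early 2-cell with DMSO and of 6.30 at late 1-cell with A-485. Dnmt3a and Dnmt1 had the most distal peaks at early 2-cell with DMSO, 13 and 8, and none with A-485. Tet3 and Dnmt3b had no promoter peak in any list. Tdg had none either, and its only peak, with a summit 19756 to 19779 bp from the nearest start site, was in each list but early 2-cell DMSO. In all, 6 of the 7 genes with a promoter peak at early 2-cell with DMSO had none of these peaks in the A-485 list. Among them were Dnmt1, Dnmt3a, Dnmt3l and Tet2, which were not called after A-485. The like share over all genes was not computed, so the count of 6 cannot be read as particular to these genes.

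Partners of these enzymes were read from lists of 82 genes written out by function, of which 81 were found. These lists too were chosen with earlier results of these data known. At zygote none of the 73 tested was called after A-485 by edgeR, beside 0.00548% of all genes higher and 0.0657% lower. At early 2-cell none of 78 was higher and 8 were lower, beside 0.402% and 7.90% of all genes. At late 2-cell 6 of 79 were higher and 22 lower with A-485, beside 10.5% and 16.8% of all genes. With TSA 8 of 81 were higher and 22 lower, beside 13.8% and 13.9%. Counts of each list are set beside the share of all genes called in that direction. Of the partners and targeting factors of the DNA methyltransferases, 9 of 17 were lower and none higher after A-485 (16.8% of all genes lower, 10.5% higher), with a median log2 change of -1.14 beside 0.28 over all genes. After TSA 7 of 17 were lower and none higher (13.9% and 13.8% of all genes), with a median of -0.51 beside 0.13. Trim28, the corepressor that keeps imprints methylated with zinc finger proteins, stood at 16.8 to 28.4 FPKM with A-485 at late 2-cell beside 169.9 to 175.1 with DMSO, and fell 13.9-fold (edgeR adjusted p = 8.50e-09). It also fell 2.65-fold at early 2-cell (adjusted p = 1.89e-05) and 3.85-fold with TSA (edgeR adjusted p = 2.47e-08). Setd2, which writes the H3K36 trimethylation that DNMT3 enzymes read, fell 4.08-fold with A-485 and 4.54-fold with TSA at late 2-cell. Pcna, the clamp that carries DNMT1 with the replication fork, fell 4.48-fold with A-485, and Ehmt1, a histone H3K9 methyltransferase, fell 4.41-fold with TSA.

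In the list of TET partners, 2 genes were higher and 2 lower of 13 at late 2-cell with A-485 (10.5% and 16.8% of all genes), and 3 higher and none lower with TSA (13.8% and 13.9%). Gadd45b, a stress-induced adaptor linked to demethylation, stood at 2.53 to 4.39 FPKM at early 2-cell with A-485 beside 16.7 to 20.2 and fell 5.28-fold (edgeR adjusted p = 9.21e-05), and its paralogue Gadd45a fell 3.52-fold there. At late 2-cell Gadd45b fell 2.85-fold and Ddb1, a subunit of the ubiquitin ligase that acts on TET proteins, fell 2.07-fold with A-485. With TSA, Gadd45g rose from 1.36 to 2.37 FPKM to 23.9 to 24.2, 10.0-fold (edgeR adjusted p = 5.07e-06), and Idh1, an enzyme that makes the alpha-ketoglutarate that TET enzymes use, rose 5.45-fold. Among base excision repair genes, which finish what TDG starts, 6 of 19 were lower and 1 higher with A-485 (16.8% and 10.5% of all genes), and 8 of 20 lower and 1 higher with TSA (13.9% and 13.8%). Parp1, the strand break sensor, fell 14.7-fold with A-485 (edgeR adjusted p = 3.18e-08), Parp2 fell 3.84-fold with A-485 and 6.31-fold with TSA, the flap nuclease Fen1 fell 4.39-fold and 2.80-fold, and the ligase Lig3 fell 4.78-fold with TSA.

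In the cycle that makes S-adenosylmethionine, the methyl donor of all DNMT enzymes, 5 of 18 genes were lower and none higher with A-485 (16.8% and 10.5% of all genes), a share called near that of all genes, and 7 of 19 lower and 2 higher with TSA (13.9% and 13.8%). Mat2a, the synthetase itself, stood at 6.32 to 7.80 FPKM with A-485 beside 16.9 to 26.4 at early 2-cell, and fell 2.65-fold there (edgeR adjusted p = 9.34e-05), 8.89-fold at late 2-cell and 4.36-fold with TSA. Shmt1, an enzyme of the folate cycle, fell 10.3-fold with A-485 and 3.09-fold with TSA, while Mthfd1 rose 3.08-fold with TSA. Of the readers of methylated CpG, 3 of 6 were higher and none lower after A-485 (median log2 change 1.16, with 10.5% of all genes higher), among them Mbd2, which rose 2.27-fold, and 1 of 6 was higher after TSA, beside 13.8% of all genes. None of 4 cytidine deaminases was called by edgeR with A-485 at late 2-cell and 1 was higher with TSA, and neither of the 2 other DNA methyltransferase genes found, Trdmt1 and Dnmt3c, was called by it in any inhibitor comparison.

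The genes whose pattern over the 16 libraries was most like that of a called member were found by Pearson correlation of log2(FPKM + 0.1), as a description over libraries that share stages, treatments and depth. For Tet1, among 10052 genes, these were Ubtd2 (r = 0.978), Pitpnb (0.974) and Tfrc (0.974). For Tdg, among 10053 genes, they were Zic5 (0.963), Meis1 (0.962) and Klf6 (0.957), which averaged 8.55, 6.92 and 11.6 FPKM at late 2-cell with A-485. For Dppa3 they were Eif4a1 (0.988), Hspa9 (0.976) and Mbd3l2 (0.975), and Eif4a1 averaged 240.6 FPKM at late 2-cell with DMSO and 80.6 with A-485.

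Some limits bear on single genes. Scaling to mitochondrially encoded genes in place of TMM moved the median of all genes by -0.98 on the log2 scale for A-485 at late 2-cell and by -1.33 from zygote to early 2-cell, and total counts moved the median by 0.36 for TSA, so small changes there depend on the scaling while those of Tet1, Tdg and Dppa3 after an inhibitor did not change call. Counts were whole numbers in all 16 libraries for Dnmt1, Dnmt3a, Dnmt3l, Tet1, Tet2 and Tet3, in 10 for Tdg, in 1 each for Dnmt3b and Uhrf1 and in none for Dppa3, which shows for which genes RSEM divided reads.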

How the data were processed

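Total RNA from pools of embryos had been turned into libraries with a SMART-Seq Stranded kit. The authors trimmed reads with Trimmomatic 0.39, aligned them with STAR 2.7.8a and quantified genes with RSEM 1.3.1 on GRCm38, per the labels and methods. The authors deposited, for each gene, expected counts, TPM and FPKM with an estimated length and effective length, beside posterior estimates. The deposited ATAC-seq peak lists give a score, a signal value that is the fold enrichment, and −log10 of p and q for peaks shared between 2 replicates. Expected counts were rounded, genes under 10 counts over a fit's libraries were left out, and groups were compared with edgeR 4.0.16 (R 4.3.3, glmQLFTest, TMM), with Benjamini-Hochberg adjustment over all genes. Each fit used the libraries compared, and interactions used 8 libraries. DESeq2 1.42.0, other scalings, filters, a replicate block and fits without 1 library were alternatives. Depth was 13206163 to 32585987 expected counts, with a median of 22730517.5. Libraries of a group were not duplicates, with chi-square per degree of freedom of 7.23 to 13.9. With 2 libraries against 2 an exact permutation test cannot go below p = 0.333, so none was used. On simulated counts with known changes, all 100 4-fold and 46 of 100 2-fold changes were recovered for the zygote comparison over 17491 genes. For A-485 at late 2-cell over 21606 genes, 76 and 25 of 100 were recovered. A change counted as recovered with adjusted p under 0.05 and an estimate of at least 2-fold. A true 2-fold change lies on that cutoff, so the counts of 46 and 25 reflect the cutoff as well as the power. The changed genes were drawn only from those above a minimum mean CPM. False calls made up 5 of 151 simulated calls for the zygote comparison and 15 of 116 for A-485 at late 2-cell. The share of false calls was thus above the adjusted p cutoff at late 2-cell and below it at zygote. The members and the lists were chosen with earlier results of these data known. Besides the 10 members, the text names pathway genes called in an inhibitor comparison with a mean of at least 10 FPKM in the higher group, at most the 3 largest changes per list, comparison and direction, and, for each member called in such a comparison, the 3 genes with the highest correlation, among genes with a mean of at least 5 FPKM in some group and a symbol that neither starts with Gm and a digit nor ends in Rik. A gene that this rule names is not reported here. Levels between genes were compared per length. CUT&RUN samples were not analysed here.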

Additional observations from a re-analysis of the deposited data

Results flagged for a closer look

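Results are given here because the effect of an inhibitor differed between stages or between inhibitors by the edgeR interaction test. Neither stage nor inhibitor can be told apart there from the time since the inhibitor was removed. The A-485 effect at late 2-cell minus that at early 2-cell was -2.48 on the log2 scale for Dppa3 (adjusted p = 2.74e-11 in edgeR), -0.56 for Tet3 (edgeR adjusted p = 0.00159) and 0.79 for Dnmt3l (edgeR adjusted p = 0.0483). The Dnmt3l difference kept its adjusted p under 0.05 in 2 of 14 alternatives and missed it in each fit without 1 library, while those of Dppa3 and Tet3 passed in all 14. The A-485 effect minus the TSA effect at late 2-cell was -1.47 for Dnmt3b (edgeR adjusted p = 0.00119), -0.77 for Dppa3 (edgeR adjusted p = 0.00245) and -0.65 for Tet3 (edgeR adjusted p = 0.00188), and each passed in all 14 alternatives. For Tet3 the DMSO pairs of the 2 experiments themselves differed by -0.75 on the log2 scale.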

How the results depend on the processing

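Of 975 log2 fold changes of these genes recomputed under alternatives, 952 kept the same call or lack of one and 22 became calls. The other 1 became a call of the opposite sign, Dppa3 from zygote to early 2-cell at -1.05 when scaled to mitochondrially encoded genes. A change of sign without a call in either fit is counted among the 952. Such changes include Tet3 with TSA, at 0.22 with total counts, and the Dnmt3l difference between stages, at -0.26 with mitochondrial scaling. For A-485 at late 2-cell, 2 genes in place of 1 were higher with DESeq2, with total counts, with all 16 libraries in 1 fit and without a fold cutoff, and 1 to 2 without each library in turn, the second being Dnmt3l, which was called without A-485 library 2 or either DMSO library. There, 7 in place of 2 were lower with mitochondrial scaling and 4 without a fold cutoff. For TSA, 2 were higher with total counts, where Dnmt3b reached 1.13, and without a fold cutoff, where 4 were lower. From zygote to early 2-cell 7 were lower with mitochondrial scaling, and 2 higher without a fold cutoff. From early to late 2-cell 2 were higher and 5 lower without a fold cutoff, and between the DMSO pairs 2 were lower. With mitochondrial scaling 5 genes differed between stages and 4 between inhibitors. This scaling also turned the share of all calls that were higher from 38.6% to 14.6% for A-485 at late 2-cell and from 42.9% to 13.4% for zygote to early 2-cell, and total counts moved that for TSA from 49.9% to 63.3%. The cause was not tested. With the late 2-cell DMSO libraries of the TSA experiment, Tet3 changed by -1.55 from early to late 2-cell.

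Peaks above the median fold of their list left a promoter peak at 2 genes at late 1-cell with DMSO, 1 with A-485, 3 at early 2-cell with DMSO and 0 with A-485, and 2, 19 and 3 distal peaks at late 1-cell with DMSO, early 2-cell with DMSO and early 2-cell with A-485. With 0.5 kb in place of 1 kb, 2 genes had a promoter peak at late 1-cell with DMSO and 1 at early 2-cell with A-485. With a fixed length per gene, 5 of 10 genes kept their place in the order by level at late 2-cell with A-485. The fixed length and an overlap of 50% of the shorter peak were chosen after seeing the data.

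Replicate numbers did not pair the libraries, since deviations of libraries with the same number correlated between -0.03 and 0.07. With the number as a replicate block, no count of called genes changed, and the change of Dppa3 after A-485 at late 2-cell was -2.40 and that of Tet1 -2.03. Depth limits Tdg most, with at most 10 counts in each DMSO library.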
